A study of Mus musculus with 11 samples.

Results

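E14 mouse embryonic stem cells (ESCs) transfected with CMTR1 siRNA 2 were compared with E14 ESCs transfected with a scrambled control siRNA, both harvested after 36 h. The comparison used the 4 siRNA 2 libraries and the 3 control libraries, 7 of the 11 RNA-seq libraries of the series, and the other 4 were made with CMTR1 siRNA 1. Of 54838 genes counted, 16073 had more than 1 CPM (counts of a gene scaled to the total counts of its library) in at least 4 of the 11 libraries, and all of these were tested. Every group was grown on gelatin with leukaemia inhibitory factor (LIF) in serum replacement medium and was transfected with a lipid reagent. No library of an untransfected culture entered the comparison. The methods give 3 biological replicates, whereas each CMTR1 siRNA has 4 libraries, and the labels do not say which libraries came from separate cultures. The p-values therefore measure the spread between libraries, part of which may be technical.

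CMTR1 adds a methyl group to the ribose of the first transcribed nucleotide of mRNA, next to the 7-methylguanosine cap, and binds RNA polymerase II as transcription starts. A short interfering RNA (siRNA) pairs with a complementary stretch of its target mRNA, which is then cut. Such an RNA can also lower other transcripts through its seed, the bases near the 5′ end of the guide strand that pair in the manner of a microRNA. ESCs are held in a pluripotent state by LIF and a network of transcription factors, while germline genes are kept low in them by DNA methylation and by repressor complexes at their promoters.

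Transcript levels of the targeted gene, Cmtr1, were 21.3, 21.7 and 17.9 CPM with control siRNA and 15.6, 16.8, 16.4 and 19.5 CPM with siRNA 2. The fourth siRNA 2 library stood above the third control library, so the groups overlapped. The log2 fold change was -0.25 (SE 0.11), which did not pass the test (edgeR's quasi-likelihood test, adjusted p = 0.144; exact two-sided permutation test, p = 0.114, where 0.0571 is the smallest p that 3 against 4 libraries allow). Of 9720 exonic bases of Cmtr1, 3525 are shared with the overlapping genes Gm28043 and Gm28052, and reads there cannot be given to 1 gene. The siRNA 2 target lies in exon 6 of 24 of Cmtr1 at chr17:29680594-29680612, plus strand of GRCm38. It is shown here with the match to guide bases 2 to 8 in capitals, because 1 of the genes that fell carries much of it.
siRNA 2 target in Cmtr1: gatggttattgAAGATGAa
A stretch of at least 14 bases of this target was found in transcripts of 11 genes, 8 of them tested. Besides Cmtr1 and the genes that overlap it, Sec24c and Ntn1 are described, named after their values were seen because they were the 2 of the 8 that passed the test. In the same comparison 9.72% of all genes passed. Spag1, which also shares 15 bases, changed by -0.10 on the log2 scale (edgeR's quasi-likelihood test, adjusted p = 0.588). Camk2n1, Arhgef17 and Vgll3, with 14 bases each, changed by -0.17, 0.04 and 0.21 and did not pass. Of 9 tested genes sharing at least 14 bases with the siRNA 1 target, 2 passed, Gprasp1 and Gimap9, which rose. In Sec24c, a cargo adaptor of vesicles that leave the endoplasmic reticulum, 15 bases of coding exon 7 of 23 matched at chr14:20686511-20686529, plus strand. In Ntn1, which encodes the guidance cue netrin-1, 14 bases matched in the 3′ UTR, exon 7 of 7, at chr11:68212616-68212634, minus strand. Capitals mark the matched bases.
Sec24c: tcaGGTTATTGAAGATGAt
Ntn1: GATGGTTATTGAAGgggga
Sec24c was at 149, 141 and 142 CPM with control siRNA and at 107, 113, 117 and 114 CPM with siRNA 2. The groups were apart, and the log2 fold change was -0.35 (SE 0.05, edgeR's quasi-likelihood test, adjusted p = 4.24e-06). Against siRNA 1 the log2 difference was -0.45 (adjusted p = 4.89e-09, edgeR). Ntn1 fell by 0.52 on the log2 scale against control (edgeR, adjusted p = 8.14e-04), and its difference from siRNA 1 was -0.18 (adjusted p = 0.323, edgeR).

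With siRNA 2, 1562 of 16073 genes passed a false discovery rate of 0.05 against control, 9.72% of those tested. They were 991 genes that rose (6.17%) and 571 that fell (3.55%). Most changes were small: the median absolute log2 fold change of the called genes was 0.33, and 92 genes rose and 10 fell by at least 2-fold. Of the genes that rose, 194 were below 5 CPM in the mean of the controls, and 22 of those that fell were. The median over all genes was 0.03 on the log2 scale with scaling to total counts, and the balance of directions rested on that scaling. With TMM factors, 728 genes rose and 734 fell, and with DESeq2 409 rose and 549 fell. Without the third control library 807 genes passed, without the second 914, and without the first siRNA 2 library 1015.

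**Figure D1:**
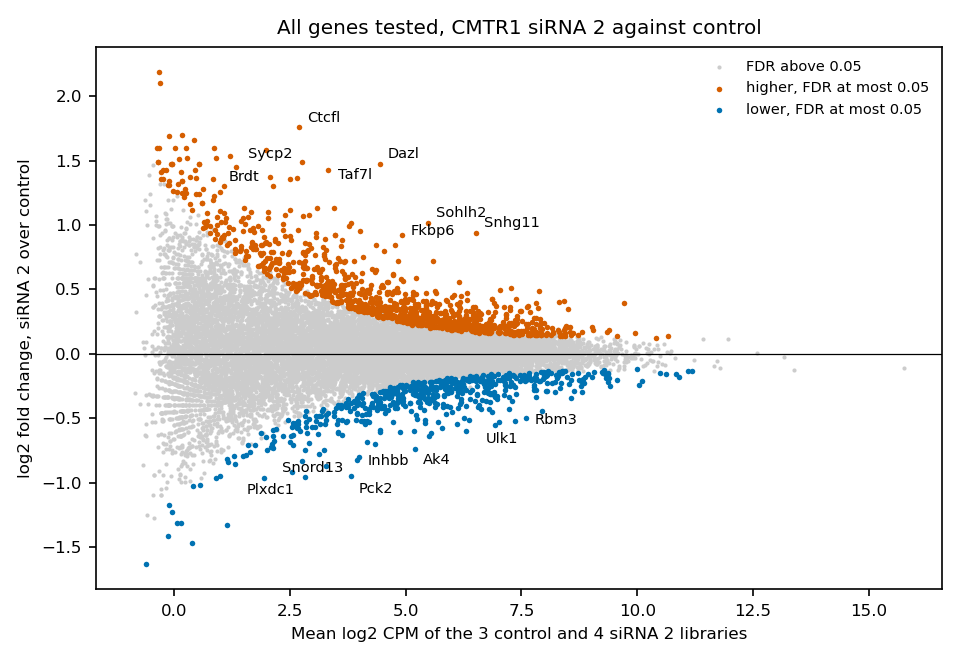
Log2 fold change of siRNA 2 over control (vertical axis) against the mean log2 CPM of the 3 control and 4 siRNA 2 libraries (horizontal axis) for 16073 genes, with those that rose in orange (991), those that fell in blue (571) and all others in grey. Ctcfl, Dazl, Sycp2 and Taf7l lie above most genes of like level, and the genes that fell spread less far from 0.

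Many of the genes that rose most act in the germline. The list of germline genes holds 40 genes of germ cell development, the meiotic chromosome axis and the piRNA pathway, which silences transposons in germ cells. Its members were chosen with earlier results of these data known, so its counts are a description. Of 38 members tested, 26 rose with siRNA 2 and 1 fell (Zfp42, which also marks naive ESCs), against 6.17% and 3.55% of all genes. Their median log2 fold change was 0.66 beside 0.03 for all genes, and 36 of 38 were above 0. At 26 of them every siRNA 2 library lay above every control library, as was so for 12.4% of all genes tested, and Zfp42 lay below control, as did 6.99% of all. A gene that entered the test only through its siRNA 2 libraries had to be higher there. Of the members, 35 had at least 1 CPM in every control library, and 25 of these rose. Between 23 and 26 members rose when single libraries were left out, 25 with TMM factors and 23 with DESeq2. Summed over all 40 genes, the level was 697, 715 and 700 CPM with control siRNA and 987, 933, 910 and 969 CPM with siRNA 2, and it lay between 648 and 728 CPM with siRNA 1. In these bulk libraries, more cells that express a gene and more RNA per cell cannot be told apart.

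Dazl encodes an RNA-binding protein that promotes translation in germ cells, and lies at chr17:50279395-50293636. Its transcript levels were 13.6, 11.1 and 11.4 CPM with control siRNA and 36.4, 34.1, 32.6 and 31.1 CPM with siRNA 2, while the siRNA 1 libraries had 12.6 to 15.8 CPM. All siRNA 2 libraries were far above every other library. The log2 fold change was 1.48 (SE 0.10, edgeR's quasi-likelihood test, adjusted p = 3.61e-14). Of the meiotic axis genes, Sycp2 went from 4.44, 3.33 and 3.50 CPM to 12.5, 8.47, 10.4 and 11.1 CPM (log2 fold change 1.49, SE 0.17, adjusted p = 3.78e-08, edgeR), with no overlap. Sycp1, the transverse filament of the synaptonemal complex, rose by 1.01 on the log2 scale, and Hormad2, which monitors synapsis of chromosomes, by 1.13. Tex101, a surface protein of germ cells, was near 1 CPM in the controls (0.889, 0.863 and 1.21) and at 2.84, 3.10, 2.97 and 2.47 CPM with siRNA 2.

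Some transcription regulators of germ cells rose too, while Prdm1 and Stra8 of the list did not pass the test. Taf7l, a germ cell form of a TFIID subunit on chromosome X, was at 5.97, 5.55 and 5.38 CPM with control siRNA and at 15.6, 15.6, 13.9 and 15.4 CPM with siRNA 2 (log2 fold change 1.42, SE 0.14, adjusted p = 1.15e-09, edgeR's quasi-likelihood test). The spread within each group was small beside the gap between them. Sohlh2, a helix-loop-helix factor of early gametogenesis, had 33.1, 27.9 and 29.2 CPM in the controls, and with siRNA 2 it had 71.3, 62.9, 51.0 and 57.9 CPM. Brdt, a bromodomain protein of the testis, rose by 1.37 (SE 0.25) on the log2 scale, with siRNA 2 libraries from 4.32 to 9.38 CPM. The first of these libraries had more than 2 times the Brdt level of the fourth. Ctcfl, the germ cell paralogue of the insulator protein CTCF, is outside the germline list and had the largest rise among genes whose mean log2 CPM was at least 2. It went from 3.43, 2.84 and 3.23 CPM to 11.8, 9.66, 12.3 and 9.63 CPM (log2 fold change 1.76, SE 0.18, adjusted p = 2.61e-09, edgeR). Ankrd31, which places the breaks of meiotic recombination, rose by 1.36 (SE 0.19) and is also outside the list.

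Of the piRNA pathway, Tdrd1, a Tudor domain scaffold of the granules where piRNAs are made, had 5.21, 4.44 and 4.98 CPM with control siRNA and 11.1, 9.54, 12.1 and 8.64 CPM with siRNA 2, and the groups did not overlap. Its log2 fold change was 1.08 (SE 0.16, adjusted p = 7.44e-06, edgeR's quasi-likelihood test). Fkbp6, a co-chaperone in piRNA loading, rose from a mean of 21.1 ± 2.05 CPM (SD, n = 3) to 40.0 ± 1.94 CPM (SD, n = 4). The helicases Ddx4 and Mov10l1 and the granule protein Mael, which were named after their values were seen, rose by 0.72, 0.80 and 0.62 on the log2 scale. Slc25a31, the testis form of the mitochondrial ADP/ATP carrier, rose by 1.37 (SE 0.17, adjusted p = 3.16e-07, edgeR).

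**Figure D2:**
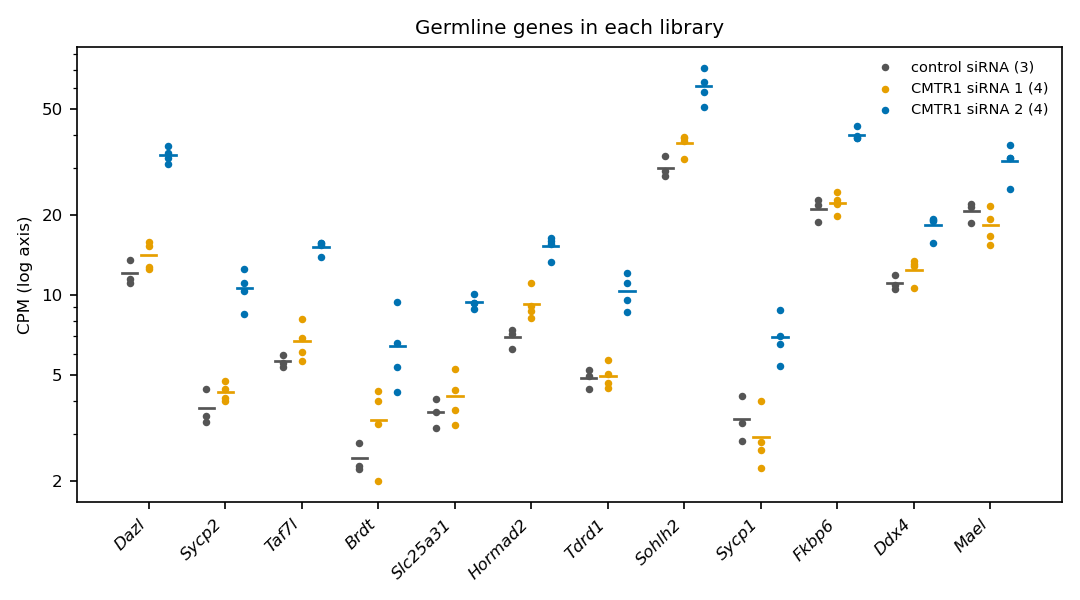
CPM of 12 germline genes in each library (log axis), with points for the 3 control, 4 CMTR1 siRNA 1 and 4 CMTR1 siRNA 2 libraries and a bar at each group mean. All siRNA 2 points lie above all control points for each of the 12 genes, and for Brdt the lowest siRNA 2 library (4.32 CPM) lies below the highest siRNA 1 library (4.36 CPM).

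Against siRNA 1, 1196 genes passed the test (7.44% of those tested), 721 higher with siRNA 2 (4.49%) and 475 lower (2.96%). Of the 38 germline genes tested, 27 were higher with siRNA 2 than with siRNA 1 and none lower by edgeR (0 also at an unadjusted p under 0.05), with a median log2 difference of 0.56. The difference was 1.24 (SE 0.09) for Dazl, 1.69 (SE 0.16) for Ctcfl and 1.17 (SE 0.12) for Taf7l, each with all 4 siRNA 2 libraries above all 4 of siRNA 1. Against control, the siRNA 1 libraries gave 1 germline gene higher and 2 lower at the same threshold, with a median log2 fold change of 0.02. In that comparison 421 genes were higher and 301 lower among the 13130 tested genes with an annotated 3′ UTR. Outside the list, Prss50, a testis protease, differed by 1.19 (SE 0.12) between the siRNAs, and Hsf5, a heat shock factor of spermatocytes, by 1.23 (SE 0.20).

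The promoters of the germline genes were read for the E-box CACGTG, the same on both strands, which is bound by MYC with MAX and by MGA with MAX in a Polycomb complex that holds germline genes silent in ESCs. Windows from 250 bases before to 50 after the start of each gene came from RefSeq (GRCm38.p6), and matched 32 of the 38 genes. In 13 windows the E-box was present (40.6%), beside 10.4% of the 10847 windows of all tested genes. All 13 of these genes rose, with a median log2 fold change of 0.92, and of the 19 without it 10 rose and 1 fell, with a median of 0.44. Over the 10847 genes with a window, 7.82% of those with the E-box and 6.65% of those without it rose, and with the germline list left out 6.75% of those with it did. The E2F motif TTCCCGC, read on both strands, was in 31.2% of the germline windows and in 8.80% of all. Of the 10 germline genes with it 7 rose, with a median log2 fold change of 0.47, and of the 22 without it 16 rose, with a median of 0.86. A match is a description of these letters, and the 17 E-boxes found started between 246 and 11 bases upstream. Those of 6 genes described here are printed with 8 bases on either side and the E-box in capitals, to show that the letters around it differ.
Taf7l, chrX:134476526-134476547, minus strand: tcttatacCACGTGacagaact
Brdt, chr5:107331108-107331129, plus strand: ggcacagtCACGTGgcagaccc
Slc25a31, chr3:40708770-40708791, plus strand: actggaaaCACGTGttatggtc
Sycp1, chr3:102936181-102936202, minus strand: gaacccggCACGTGggaaggga
Tdrd1, chr19:56826190-56826211, plus strand: gctgcgcgCACGTGggagtaaa
Ddx4, chr13:112652326-112652347, minus strand: tccgcccgCACGTGcagccgtt
Dazl, Sycp2, Hormad2 and Sohlh2, which rose by 1.01 to 1.49 on the log2 scale, had no E-box in these windows.

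**Figure D3:**
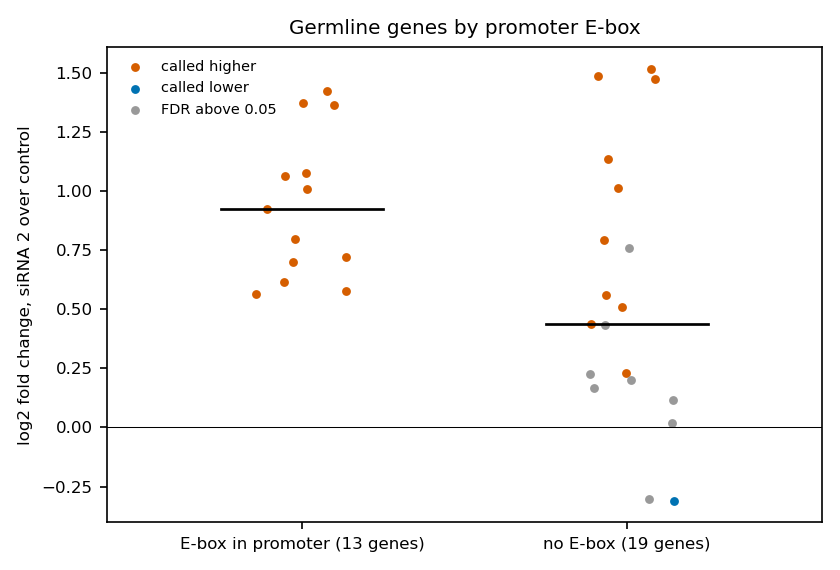
Log2 fold change of siRNA 2 over control for the germline genes with a RefSeq promoter window, split into 13 with and 19 without the E-box, with bars at the medians (0.92 and 0.44). All 13 points on the left are genes that rose, and the right column runs from Tex101 at 1.52 down to 2 genes below 0.

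Genes of the 2-cell-like state, a rare and passing condition of ESCs with transcripts of the early embryo, also rose in part. Of 28 listed genes, 12 were tested and 6 rose (50%, beside 6.17% of all genes), with a median log2 fold change of 0.77. None was lower (by edgeR, also at an unadjusted p under 0.05, and by DESeq2), beside 3.55% of all genes. Of the 12, 11 had at least 1 CPM in every control library. Zscan4d, a zinc finger gene that marks this state, was at 7.11, 5.55 and 5.52 CPM with control siRNA and at 11.1, 10.3, 10.5 and 9.51 CPM with siRNA 2 (log2 fold change 0.76, SE 0.15, adjusted p = 6.71e-04, edgeR's quasi-likelihood test). Its groups did not overlap. The sum over the 28 genes was 40.3 to 43.9 CPM in the controls, 60.4 to 67.6 CPM with siRNA 2 and 39.9 to 41.6 CPM with siRNA 1. Zscan4 and Usp17l genes are near-identical copies whose reads could be split between them, so single members are uncertain. With DESeq2, 2 members rose, and without the second control library 2 did.

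Among 44 Polycomb genes tested, 8 rose (18.2%, beside 6.17% of all genes) and 5 fell (11.4%, beside 3.55%), with a median of 0.01 on the log2 scale. Scml2, a germline Polycomb protein on chromosome X, was at 10.2, 8.76 and 7.13 CPM with control siRNA and at 16.8, 16.3, 16.2 and 15.1 CPM with siRNA 2. The siRNA 2 libraries were all higher, by 0.88 on the log2 scale (SE 0.12, adjusted p = 3.00e-06, edgeR's quasi-likelihood test). E2f6, the DNA-binding repressor of a germline-silencing Polycomb complex, rose by 0.39 (SE 0.07). The other subunits of that complex looked up after the values were seen did not pass the test: the log2 fold change was 0.03 for Mga, 0.02 for Max, 0.02 for L3mbtl2 and 0.12 for Pcgf6. Of 36 genes for DNA methylation and the guarding of imprints, 7 rose (19.4%) and 5 fell (13.9%), with a median of 0.04. The methyl-CpG reader Mbd2 rose by 0.35 (SE 0.09) and the dioxygenase Tet2, which oxidises methylcytosine, fell by 0.28 (SE 0.05), while the maintenance methyltransferase Dnmt1 (-0.01) and its partner Uhrf1 (-0.08), named after their values were seen, did not pass. Without the third control library 1 gene of this list fell, and with DESeq2 4 rose. Without the second or the third control library 3 genes of the Polycomb list fell.

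Targets of p53, which rises after damage or stress, rose in part. Of 37 tested, 9 rose (24.3%, beside 6.17% of all genes) and 3 fell (8.11%, beside 3.55%), with a median log2 fold change of 0.11. Perp, a junction protein with a part in cell death, had 22.6, 19.4 and 20.1 CPM with control siRNA and 36.4, 33.5, 26.4 and 30.4 CPM with siRNA 2 (log2 fold change 0.61, SE 0.10, adjusted p = 1.96e-05, edgeR's quasi-likelihood test). Cdkn1a, the p21 inhibitor of cyclin-dependent kinases, rose by 0.41 (SE 0.07) with no overlap between groups. Pmaip1, the death factor NOXA, rose by 0.42 (SE 0.10), although the third siRNA 2 library lay within the control range. With DESeq2, without the third control library or without the first siRNA 2 library, 5 targets rose. With siRNA 1, which shares these controls, 6 targets rose and 1 fell, with a median of 0.09. Among the 13130 tested genes with an annotated 3′ UTR, 421 rose and 301 fell with siRNA 1. Against siRNA 1, 2 targets were higher and 1 lower, where 4.49% and 2.96% of all genes were. Perp was higher by 0.49 (SE 0.09), and the difference for Cdkn1a was -0.09 (SE 0.07, adjusted p = 0.463, edgeR).

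Of 31 genes of the Hippo pathway, which restrains the YAP and TEAD transcription factors, 8 rose (25.8%) and none fell by edgeR (0 also at an unadjusted p under 0.05) or DESeq2. Crim1, a membrane protein induced by YAP, rose by 0.45 (SE 0.11), and the phosphatase Ptpn14 went from 143, 149 and 155 CPM to 186, 183, 175 and 173 CPM. That is a log2 fold change of 0.26 (SE 0.05, adjusted p = 4.98e-04, edgeR's quasi-likelihood test) with no overlap. With TMM factors 4 of these genes rose, and 3 with DESeq2 or without the second or the third control library. Actin and focal adhesion genes rose in 13 of 80 cases (16.2%, beside 6.17% of all genes) and fell in 3 (3.75%, near the 3.55% of all genes). The GTPase Rac1, which drives actin protrusions, was at 110, 107 and 109 CPM with control siRNA and at 163, 155, 146 and 149 CPM with siRNA 2 (log2 fold change 0.49, SE 0.06, adjusted p = 2.85e-08, edgeR). Myl9, a myosin light chain, rose by 0.49 (SE 0.12) and Flnc, an actin cross-linker, by 0.40 (SE 0.06). Without the first control library 8 actin genes rose, and 7 did with DESeq2. Against the same controls, siRNA 1 gave 10 actin genes that rose and 1 that fell, and 5 Hippo genes that rose and 1 that fell. Among the 13130 tested genes with an annotated 3′ UTR, 421 rose and 301 fell with siRNA 1.

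Cholesterol synthesis and uptake genes rose in 6 of 30 cases (beside 6.17% of all genes) and fell in 1 (3.33%, near the 3.55% of all genes). Idi1, an isomerase of the mevalonate pathway, rose by 0.28 (SE 0.08). Under DESeq2, or without the second or the third control library, 2 of these genes rose, and Idi1 did not pass under DESeq2. Proteasome subunit genes rose in 6 of 50 cases (beside 6.17% of all genes) and fell in 1 (beside 3.55%), and Psmb7, a catalytic subunit, rose by 0.37 (SE 0.05). With DESeq2 or without the first siRNA 2 library 2 proteasome genes rose.

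**Figure D4:**
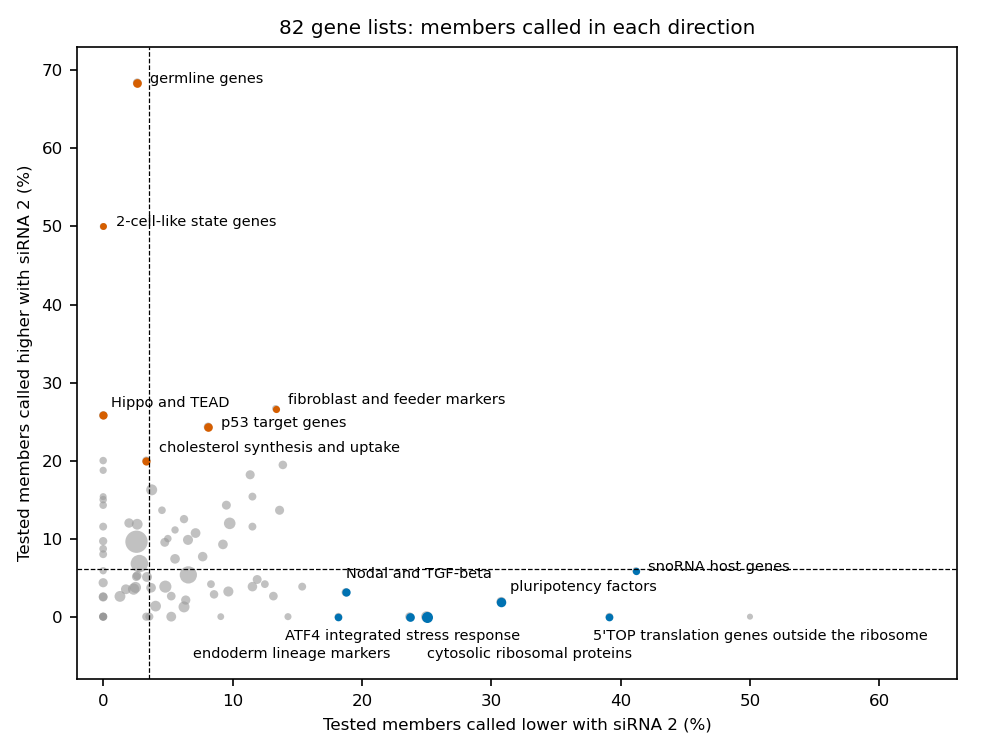
Percentage of tested members that rose (vertical axis) against the percentage that fell (horizontal axis) with siRNA 2 for 82 gene lists, with point size following list size and dashed lines at the values of all genes (6.17% and 3.55%). Germline genes (68.4% rose) and 2-cell-like state genes (6 of 12 rose) stand at the top left, and snoRNA host genes (41.2% fell), 5′TOP translation genes (39.1% fell) and pluripotency factors (30.8% fell) lie to the right near the bottom.

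Genes of the ATF4 programme, which serves amino acid supply and is induced by the integrated stress response, fell in part. Of 38 tested, 9 fell (23.7%, beside 3.55% of all genes) and none rose by edgeR or DESeq2 (1 was higher at an unadjusted p under 0.05), with a median log2 fold change of -0.09. Pck2, the mitochondrial phosphoenolpyruvate carboxykinase, was at 16.3, 20.6 and 25.2 CPM with control siRNA and at 9.38, 10.0, 10.2 and 12.8 CPM with siRNA 2. The control libraries spread widely and still lay above every siRNA 2 library, and the log2 fold change was -0.95 (SE 0.13, adjusted p = 1.35e-06, edgeR's quasi-likelihood test). Trib3, a pseudokinase that feeds back on ATF4, fell by 0.52 (SE 0.11), and the stress regulator Nupr1 fell by 0.72 (SE 0.20). The Nupr1 call was lost without the third control library or the first siRNA 2 library. With siRNA 1, which shares these controls, 19 members fell, with a median of -0.20. Among the 13130 tested genes with an annotated 3′ UTR, 301 fell with siRNA 1. Between the siRNAs, 6 members were higher with siRNA 2, beside 4.49% of all genes. Without the second or the third control library or the first siRNA 2 library 6 members fell against control, and with TMM factors 14 did.

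Activin, Nodal and BMP ligands steer ESCs towards or away from the germ layers, and transcripts of a few genes of these pathways fell, inhibitors among them. Of 32 genes of the Nodal and TGF-beta pathway, 6 fell (18.8%, beside 3.55% of all genes) and 1 rose (3.12%, beside 6.17%), with a median log2 fold change of 0.01. Inhbb, the beta B subunit of activin, went from 20.4, 21.6 and 24 CPM to 11.5, 13.1, 13.1 and 12.7 CPM, with a clear gap between groups (log2 fold change -0.80, SE 0.11, adjusted p = 1.89e-06, edgeR's quasi-likelihood test). Pmepa1, an inhibitor induced by TGF-beta, fell by 0.54 (SE 0.10), and Tgfbr3, a co-receptor, rose by 0.70 (SE 0.18). Without the third control library 2 of these genes fell. Of 24 BMP pathway genes, 3 fell (12.5%) and 1 rose (4.17%), with a median of 0.07, and 1 fell without the third control library. Bmp4, a ligand that sustains ESCs with LIF, had 12.2, 12.2 and 13.9 CPM in the controls and 6.39, 7.04, 10.2 and 6.67 CPM with siRNA 2 (log2 fold change -0.75, SE 0.14, adjusted p = 3.18e-04, edgeR). Of these, the third siRNA 2 library was nearest to the controls. Smad6, an inhibitor of BMP signalling, fell by 0.69 (SE 0.16), a call that was lost without the third control library. Between the siRNAs, the log2 difference was -0.13 (SE 0.11, adjusted p = 0.558, edgeR) for Inhbb and -0.06 (SE 0.15, adjusted p = 0.855, edgeR) for Bmp4.

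Endoderm markers fell in 4 of 22 cases (18.2%, beside 3.55% of all genes) and none rose by edgeR (3 were higher at an unadjusted p under 0.05). With DESeq2, 1 fell and none rose. Apoe, which encodes an apolipoprotein of visceral endoderm and of ESCs, fell by 0.43 (SE 0.06), from 124, 126 and 148 CPM to 89.8, 99.7, 102 and 102 CPM. Cubn, Col4a1 and Lama1, of the yolk sac and its basement membrane, fell by 0.39, 0.34 and 0.29, and all 3 were high in the first control library, without which 1 endoderm marker fell. Of 5 strict endoderm markers, the sum was 12.6 to 20.4 CPM with control siRNA and 12.2 to 16.2 CPM with siRNA 2. Among 20 neural markers 4 rose (beside 6.17% of all genes) and none fell by edgeR or DESeq2 (1 was lower at an unadjusted p under 0.05). Nes, the intermediate filament of neural progenitors, rose by 0.45 (SE 0.07), and Nefm, a neurofilament, by 0.90 (SE 0.15). Against the same controls, siRNA 1 gave 5 neural markers that rose and 0 that fell by edgeR, beside 421 and 301 of the 13130 tested genes with an annotated 3′ UTR. The neural median was 0.21 with siRNA 1 and 0.08 with siRNA 2.

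Fibroblast markers were checked because feeder cells could enter a culture of ESCs. Of 15 tested, 4 rose (26.7%, beside 6.17% of all genes) and 2 fell (13.3%, beside 3.55%). With DESeq2 1 rose and 1 fell, and without the second control library 2 rose. Col1a1, the main fibrillar collagen chain, was at 8.25, 8.26 and 9.42 CPM with control siRNA and at 14.2, 14.2, 12.8 and 16.7 CPM with siRNA 2 (log2 fold change 0.75, SE 0.13, adjusted p = 6.42e-05, edgeR's quasi-likelihood test). Its groups were apart, while Col3a1 moved the other way, by -1.42 (SE 0.41) at no more than 2.16 CPM in any library. The median log2 fold change was 0.32, with 12 members above 0 and 3 below. Summed over all 20 genes of the list, the level was 1431, 1412 and 1565 CPM with control siRNA. It was 1238, 1304, 1471 and 1286 CPM with siRNA 2, so this sum was not higher. The mean log2 CPM of the 20 genes, which weighs each gene alike, was higher in every siRNA 2 library. It was 1.62, 1.68 and 1.88 with control siRNA and 1.93 to 2.03 with siRNA 2. Over the 7 defining feeder markers alone the sum was 25.9 to 32.2 CPM in the controls and 37.6 to 42.9 CPM with siRNA 2, and 2 rose and 1 fell of 6 tested. Lum, another of the 7, was at 0 in all control libraries and at most at 0.142 CPM with siRNA 2. The part of feeder cells in the other results was not tested. ESC markers were high in every library: 8 of 8 were tested, their sum was 1916 to 2019 CPM with control siRNA and 1731 to 1808 CPM with siRNA 2, and 3 fell.

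Small nucleolar RNAs (snoRNAs), which guide the modification of ribosomal RNA, and the genes that host them in introns fell in part. Of 17 host genes tested, 7 fell (41.2%, beside 3.55% of all genes) and 1 rose (5.88%, beside 6.17%), with a median log2 fold change of -0.25, and 7 fell in each setting that left out 1 library. Snhg12 went from 80.4, 71.7 and 67.6 CPM to 55.7, 58.6, 52.3 and 52.8 CPM, without overlap (log2 fold change -0.42, SE 0.07, adjusted p = 1.98e-05, edgeR's quasi-likelihood test). Snhg8 fell by 0.44 (SE 0.10) and Snhg3 by 0.38 (SE 0.08). With siRNA 1, which shares the controls, 6 host genes fell, beside 301 of the 13130 tested genes with an annotated 3′ UTR. None was lower with siRNA 2 than with siRNA 1 by edgeR (1 at an unadjusted p under 0.05), beside 2.96% of all genes. Snhg11 was the exception, at 66.4, 67.2 and 55.7 CPM with control siRNA and at 125, 117, 131 and 113 CPM with siRNA 2. It rose by 0.94 (SE 0.07, adjusted p = 3.61e-14, edgeR), and its siRNA 1 libraries had 63.6 to 74.0 CPM. Of 134 annotated snoRNA genes tested, 18 fell (13.4%) and none rose by edgeR's quasi-likelihood test (1 was higher at an unadjusted p under 0.05), with a median of -0.19. The fall was not particular to snoRNAs. Of 16 small Cajal body RNA genes 3 fell (18.8%), and of 42 small nuclear RNA genes 5 fell (11.9%), with 0 called higher in either class. Snord13, which guides an acetylation of ribosomal RNA, was at 26.3, 18.7 and 19.8 CPM with control siRNA, 15.3, 10.6, 14.6 and 8.89 CPM with siRNA 2 and 18.8 to 26.0 CPM with siRNA 1. The siRNA 2 libraries were the lowest of all 11, and the log2 fold change was -0.82 (SE 0.13, adjusted p = 4.00e-05, edgeR). Snora21 fell by 0.83 (SE 0.16). Libraries of this kind recover short RNAs incompletely, so these levels describe the fragments that were sequenced.

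**Figure D5:**
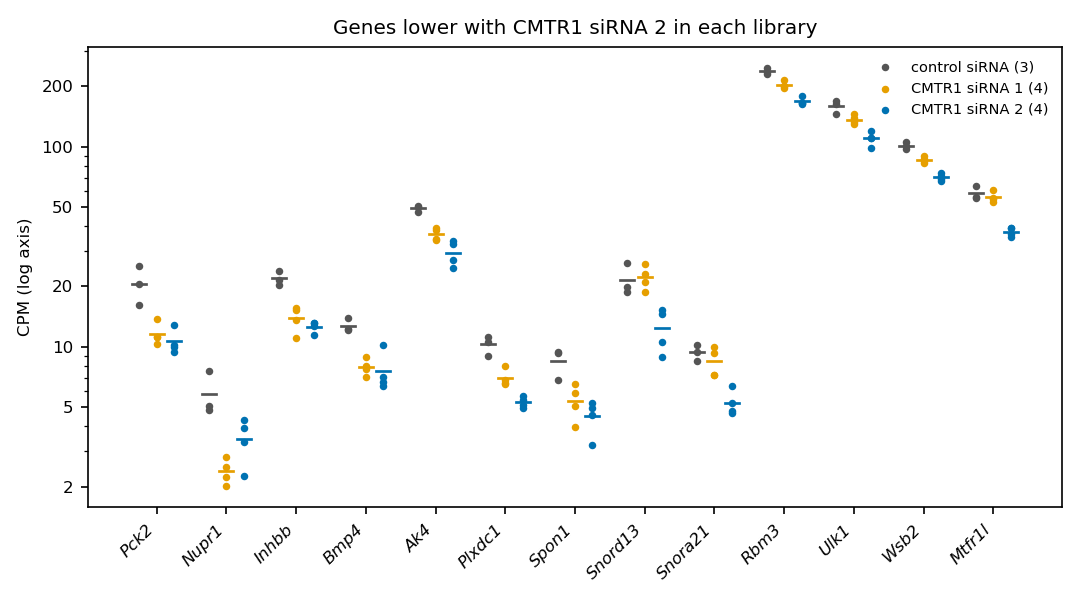
CPM of 13 genes that fell with siRNA 2 in each library (log axis), with points for the 3 control, 4 CMTR1 siRNA 1 and 4 CMTR1 siRNA 2 libraries and a bar at each group mean. Pck2, Inhbb and Bmp4 have siRNA 1 points among those of siRNA 2, whereas for Snord13, Snora21 and Mtfr1l the siRNA 1 points lie with control.

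Translation genes outside the ribosome with a 5′TOP motif, a pyrimidine tract at the start of the mRNA through which mTOR controls translation, fell in 9 of 23 cases (39.1%, beside 3.55% of all genes) and none rose by edgeR (0 also at an unadjusted p under 0.05) or DESeq2. Their median was -0.08. Eef1b2, an elongation factor subunit, went from 487, 501 and 475 CPM to 410, 407, 401 and 419 CPM, a narrow and separate fall of 0.25 on the log2 scale (SE 0.04, adjusted p = 5.55e-05, edgeR's quasi-likelihood test). Without the second control library 3 of these genes fell. Against the same controls, siRNA 1 gave 5 of these genes that fell and 0 that rose by edgeR, with a median of -0.09. Among the 13130 tested genes with an annotated 3′ UTR, 301 fell and 421 rose with siRNA 1. Glycolysis and hypoxia genes fell in 5 of 38 cases (13.2%, beside 3.55% of all genes) and rose in 1 (2.63%, beside 6.17%). Pgk1, a glycolytic kinase, fell by 0.31 (SE 0.06), and the angiogenic factor Vegfa by 0.41 (SE 0.11), a call lost without the third control library.

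Other genes that fell most were scattered over functions. Ak4, a mitochondrial adenylate kinase, had 47.4, 49.8 and 50.6 CPM with control siRNA and 27.0, 24.7, 32.5 and 33.7 CPM with siRNA 2 (log2 fold change -0.74, SE 0.08, adjusted p = 1.83e-08, edgeR's quasi-likelihood test). Mtfr1l, a regulator of mitochondrial shape, had 55.6, 63.5 and 55.7 CPM in the controls, 39.3, 35.4, 39.1 and 36.7 CPM with siRNA 2 and 53 to 60.6 CPM with siRNA 1. Its siRNA 2 libraries stood below all others, with a log2 difference of -0.58 (SE 0.07) from siRNA 1. Ulk1, the kinase that starts autophagy, fell by 0.53 (SE 0.06), Plxdc1, a membrane receptor, by 0.96 (SE 0.15), and Spon1, an extracellular matrix protein, by 0.92 (SE 0.18). A2m, a protease inhibitor, and Mymx, a micropeptide of myoblast fusion, fell by 0.74 and 0.78. Among the largest rises outside the germline were Msln, the surface protein mesothelin, by 1.31 (SE 0.21), and Unc80, a subunit of a sodium leak channel, by 1.10 (SE 0.24). Igfbp5, which binds insulin-like growth factors, fell by 0.63 (SE 0.13) against control and differed by -0.79 (SE 0.12) from siRNA 1.

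Of 17 genes for cap formation and cap binding, 1 rose (5.88%, near the 6.17% of all genes). It was Rnmt, the cap guanine methyltransferase, by 0.20 (SE 0.06, adjusted p = 0.0251, edgeR's quasi-likelihood test). The Rnmt call was lost with TMM factors, DESeq2, the replicate number as a block, or an exonic length or GC trend removed. It was also lost when at least 1 single library was left out. Of 30 genes for interferon and RNA sensing, 1 fell (3.33%, near the 3.55% of all genes), Stat2, a mediator of interferon signals. None rose by edgeR or DESeq2 (1 was higher at an unadjusted p under 0.05). The Stat2 call was lost when at least 1 single library was left out. None of 33 heat shock protein genes passed edgeR's test, where 3 were higher and 2 lower at an unadjusted p under 0.05, and DESeq2 called 2 lower. None of 25 immediate early genes passed with edgeR or DESeq2, where 5 were higher and 1 lower at an unadjusted p under 0.05. The median log2 fold change was 0.02 for the cap genes, 0.00 for the interferon genes, 0.04 for the heat shock genes and 0.07 for the immediate early genes.

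The genes that fell were read for the seed match of siRNA 2. Among genes with an annotated 3′ UTR, 24.6% of 512 that fell, 15.02% of 919 that rose and 14.96% of 11699 that did not pass held the 7-base match, AAGATGA, on the transcript strand of the 3′ UTR. The 3′ UTRs of the genes that fell were no longer, with a median of 1021.5 bases beside 1540 and 1173 bases. For the match of siRNA 1, ATGAATT, the share was 12.1% of genes that fell with siRNA 2, 17.2% of those that rose and 13.6% of those that did not pass. Between the siRNAs, the siRNA 1 match was in 30.2% of 665 genes higher with siRNA 2 and 9.26% of 421 lower. It was in 13.05% of 12044 that did not pass. The siRNA 2 match was in 13.5%, 25.2% and 15.1% of these same groups. The part of seed matches in the difference between the siRNAs was not tested. A seed match is a description, and 386 of the 512 genes that fell had none.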

How the data were processed

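Total RNA of E14 ESCs was depleted of ribosomal RNA and made into directional paired-end libraries. The authors deposited whole-number counts of reads per Ensembl gene. According to the methods and the submitters' processing notes, these were made with FastQC, Cutadapt, STAR on GRCm38, Picard removal of duplicates and featureCounts, whose versions are not given in the sources used here. Duplicate removal lowers the counts of short and highly transcribed RNAs. In 10 of 11 files, all but the fourth siRNA 2 library, the counts end with closing totals of the counter, which were not used as genes. These lines are in the style of HTSeq, another counter, although the methods name featureCounts, and the strand setting of the counting is not given. In those 10 libraries the reads outside genes came to 73.4 to 90.5% of the reads in genes. Counted reads ranged from 7429926 to 8107684 in the control libraries and from 7039741 to 8382318 with siRNA 2, so a gene at 1 CPM rests on about 7 or 8 reads. No libraries agreed within sampling noise, so each was counted once.

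Genes above 1 CPM in at least 4 of 11 libraries were scaled to total counts, as the methods state, and fitted in 1 model of all 3 groups. The test was edgeR's quasi-likelihood F-test (edgeR 4.0.16 in R 4.3.3). Adjusted p-values are Benjamini-Hochberg rates over 16073 genes, and rose or fell means a rate of at most 0.05. Groups came from the labels. Gene lists, 82 in all, were matched by symbol and are described by counts and medians. The members of the lists, the tests and the named genes were chosen with earlier results of these data known. Named genes were the 12 largest changes and the 6 lowest rates in each direction among genes with separate groups, a mean log2 CPM of at least 2 and no provisional symbol, outside the ribosomal protein, histone and pluripotency lists. To these were added up to 4 called members of each list, the 8 largest differences in each direction between the siRNAs, Cmtr1, and the cap genes. Seed matches, 7 bases long, were read in 3′ UTRs of the annotated transcripts, and promoter windows came from RefSeq.

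The alternatives were edgeR's exactTest, TMM factors, 2 other filters, DESeq2 1.42.0, a 1.5-fold threshold, a fit of 2 groups only, the replicate number as a block, removal of an exonic length or GC trend, and each library left out in turn. Leaving Gm26917 out of the library sizes was added after the data were seen. The single value of Cmtr1 was tested by exact permutation with scipy 1.17.1. On simulated counts of 16073 genes with 200 changed, 167 genes were called, 8 of them wrongly. Among 100 genes set 2-fold apart 98 were called, and among 100 set 1.41-fold apart 61 were. The changed genes were drawn only from those with higher mean counts, so these shares do not cover genes near 1 CPM. Tables and figures were made with Python 3.11.15, numpy 2.4.6, pandas 2.3.3 and matplotlib 3.10.9.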

Additional observations from a re-analysis of the deposited data

Results flagged for a closer look

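Between the siRNAs, 1196 genes differed by edgeR's quasi-likelihood test, and 27 of them were germline genes higher with siRNA 2. They include 92 of the named genes. The largest log2 differences of siRNA 2 minus siRNA 1 among the named genes were 1.69 for Ctcfl, 1.28 for Sycp2, 1.25 for Sycp1, 1.24 for Dazl, 1.23 for Hsf5, 1.19 for Prss50, 1.17 for Taf7l and 1.17 for Slc25a31. In the other direction they were -0.86 for Snord13, -0.79 for Igfbp5, -0.69 for Snora21, -0.63 for Mrnip, -0.58 for Rnft2, -0.58 for Mtfr1l, -0.57 for Tbc1d8 and -0.56 for Mymx. The Mrnip difference lost its call without the second siRNA 1 library and without the first or the fourth siRNA 2 library.

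In 4 of 40 genes, 1 of the 4 siRNA 2 libraries stood far from the others by the gap relative to the range, where chance gives about 1 in 20. These were Bmp4 (10.2 CPM in the third library, the highest), Fkbp6 (42.9 CPM in the first, the highest), Rbm3, a cold-inducible RNA-binding protein (179 CPM in the fourth, the highest), and Taf7l (13.9 CPM in the third, the lowest). No library stood apart in more than 2 of these genes, and each of these values lay on its own side of all control libraries.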

How the results depend on the processing

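Of 303 named results, 153 kept their direction and their side of the threshold in every setting run, and 139 lost the call when at least 1 single library was left out. Over 5150 values, 4422 kept direction and side, 690 lost the call, 1 gained it and 37 reversed. List medians moved by more than the spread in 149 of 1230 values. Against control, a 1.5-fold threshold left 329 genes (265 higher, 64 lower), DESeq2 called 958 (409 higher), and with the GC trend removed 874 were lower. Leaving out single libraries gave 807 to 1667 genes, 515 to 1025 higher and 292 to 642 lower. Between the siRNAs, the 1.5-fold threshold left 208 (164 higher, 44 lower), DESeq2 called 740 (419 higher), and leaving out single libraries gave 724 to 1374 (457 to 823 higher, 255 to 551 lower). The count fell to 738 without the first siRNA 1 library, 724 without the second and 757 without the first siRNA 2 library. The share of called genes that were higher, 63.4%, was 49.8% with TMM factors, 42.7% with DESeq2, 47.2% without the length trend and 48.3% without the GC trend. Leaving Gm26917 out gave 900 higher and 615 lower. The Cmtr1 value ranged from -0.33 to -0.20 without single libraries and germline genes called higher from 23 to 26. The causes of these changes were not tested.

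Values that reversed belonged to cap genes that did not pass the test. With TMM factors the log2 fold change was -0.016 for Dhx15, -0.0053 for Ncbp1 and -0.014 for Ncbp3, and with DESeq2 -0.020, -0.0094 and -0.018, and -0.0050 for Nelfe. With the length trend removed it was -0.027, -0.011 and -0.035, and with the GC trend removed -0.042, -0.014 and -0.029, and -0.0072 for Ncbp2. With the replicate block it was 0.012 for Cmtr2, -0.0067 for Dhx15 and -0.015 for Nelfe. Without single libraries the ranges were -0.068 to 0.071 for Cmtr2, -0.019 to 0.040 for Dhx15, -0.12 to 0.58 for Eif4e3, -0.0053 to 0.042 for Ncbp1, -0.037 to 0.073 for Ncbp3, -0.015 to 0.064 for Nelfe, -0.25 to 0.43 for Nudt16 and -0.035 to 0.010 for Rngtt. Deviations of same-numbered libraries of control and siRNA 2 correlated at 0.0187 to 0.0547, mean 0.0386. For other numbers the correlations were -0.0403 to 0.0175, mean -0.0129. The same-numbered values were all higher but weak, and whether the replicate numbers pair the libraries cannot be told from them. With the replicate block 1486 genes were called against control (938 higher, 548 lower) and 1242 between the siRNAs, and 38 of the 303 named results lost the call.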

Other observations

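Of 527 genes of chromosome X that were tested, 62 rose with siRNA 2 (11.8%, beside 6.17% of all genes) and 15 fell (2.85%, beside 3.55%). Against siRNA 1, 42 were higher (beside 4.49% of all genes) and 13 lower (beside 2.96%). The germline gene Taf7l, the homeobox gene Rhox13, which is transcribed in germ cells, and Scml2 were among those that rose. Rhox13 was at 6.09, 3.70 and 3.77 CPM with control siRNA and at 9.66, 11.3, 9.17 and 7.90 CPM with siRNA 2, without overlap.

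The genes that rose had longer exonic sequence (median 5030 bases) and lower GC content (47.4%) than all genes tested (3974 bases and 49.2%). Those that fell had a median exonic length of 4658 bases and a GC content of 52.4%. Of the 1562 genes that passed, 519 were in at least 1 of the 82 lists and 1043 were in none. Of 427 zinc finger genes 41 rose (9.60%, beside 6.17% of all genes) and 11 fell (2.58%, beside 3.55%), and 14 rose without the third control library and 13 with DESeq2. Of 92 genes for collagens, laminins and matrix 11 rose (beside 6.17% of all genes) and 9 fell (9.78%, beside 3.55%).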
